A study of Mus musculus with 6 samples.

Results

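Wnt proteins are secreted ligands that bind Frizzled receptors and, in the branch that stabilises beta-catenin, the coreceptors Lrp5 and Lrp6. Their activity outside the cell is held back by secreted inhibitors, and 9 of these genes are described here in hearts that overexpressed the miR-302/367 cluster of microRNAs. They are the Dickkopf genes Dkk1, Dkk2 and Dkk3, the secreted frizzled-related genes Sfrp1, Sfrp2, Sfrp4, Sfrp5 and Frzb (also called Sfrp3), and Wif1. They were taken by name from 22180 genes measured on the arrays, and all 9 had a probe, the one with the highest mean where a gene had several. Values are log2 expression as deposited, and differences are transgenic minus control. No filter on low values was applied to them.

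Total RNA of mouse hearts was hybridised to 6 Affymetrix arrays, 3 per genotype, on a mixed C57BL/6 x 129S6 background. The control hearts were Nkx2.5-Cre. The other group, called transgenic below, was Nkx2.5-Cre; R26R-miR302-367, so both groups carried the Cre driver and only the second carried the cluster at Rosa26. Nkx2.5-Cre acts in cardiac progenitors and their descendants, so cells of other origins in the heart would keep the transgene silent. The labels give the age as postnatal day 14 in the source name and harvest protocol and as E14 in the age field. Nothing in the labels says whether the samples came from separate animals, so the p-values rest on the spread between arrays, and part of that spread may be technical. Below, a heart means the sample on an array, and n counts arrays.

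Arrays correlated across all probes at 0.982 to 0.989 within a group and at 0.974 to 0.983 between groups. All 5 microRNA genes of the cluster, Mir302a to Mir302d and Mir367, were higher in every transgenic array, by 2.99 to 6.61 on the log2 scale. The 10 cardiomyocyte markers, among them Myh6 and Tnnt2, lay at or above percentile 99.1 of all genes, as the heart label requires. Mature microRNAs were not measured here.

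Mature 3p sequences of 4 of the 5 microRNA genes, all but Mir302a, are shown because their seed, bases 2 to 8 from the 5′ end and here in capitals, is what a microRNA pairs with in its targets. They are the RefSeq sequences of build GRCm38.p6, on the + strand of chromosome 3, at chr3:127545275-127545297 for miR-302b, chr3:127545406-127545427 for miR-302c, chr3:127545665-127545687 for miR-302d and chr3:127545779-127545800 for miR-367.
mmu-miR-302b-3p: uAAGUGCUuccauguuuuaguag
mmu-miR-302d-3p: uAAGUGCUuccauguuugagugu
mmu-miR-302c-3p: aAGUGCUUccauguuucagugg
mmu-miR-367-3p: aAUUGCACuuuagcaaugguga
The first 2 share the seed AAGUGCU. In the RefSeq entry of miR-302c-3p the sequence starts 1 base later, so the seed reads AGUGCUU, and miR-367-3p has the different seed AUUGCAC. Target sites in the inhibitors' transcripts were not searched here.

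The inhibitors work at different points. Secreted frizzled-related proteins carry a cysteine-rich domain like that of Frizzled receptors and bind Wnt proteins, and Wif1, Wnt inhibitory factor 1, also binds Wnts directly. Dkk1 and Dkk2 bind the coreceptors Lrp5 and Lrp6 instead, while Dkk3 is the divergent member of its family and does not share this mode of action. In frog and chick embryos, Wnt antagonists such as Dkk1 promote the formation of heart tissue from mesoderm.

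Of the 9 inhibitors, Dkk3 and Wif1 rose in transgenic hearts, by 2.81-fold and 2.12-fold, and the other 7 did not pass the test in either direction. The test was limma over all 22180 genes with Benjamini-Hochberg adjustment and a threshold of 0.05. Across all genes 11.1% were called, 5.35% higher and 5.76% lower, and 22.2% of the inhibitors were called. At an unadjusted limma p under 0.05 there were 3 of 9, with Sfrp5 as a lower one, beside 5633 of all 22180 genes. The median log2 difference of the 9 was -0.03, close to the -0.03 of all genes. Of all calls 48.2% were higher, a share that was 36.4% after a second quantile normalization and 38.1% with arrays centred on their median.

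**Figure D1:**
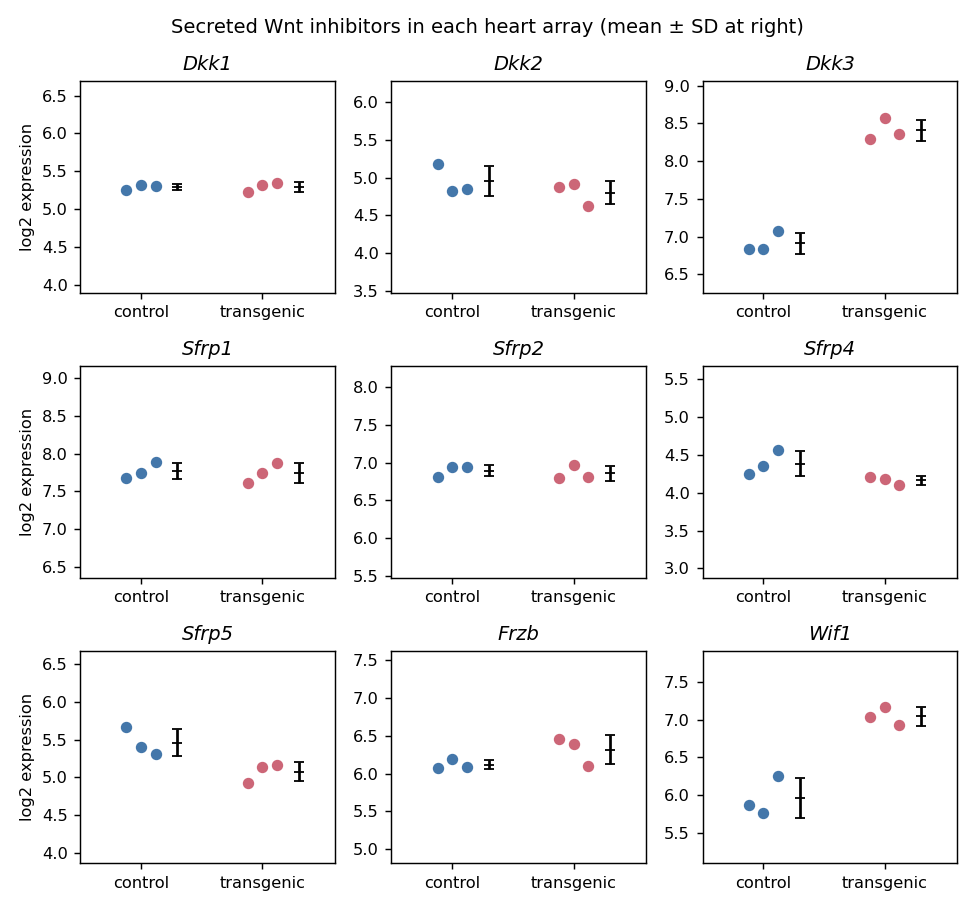
Log2 expression (y axis) of the 9 secreted Wnt inhibitors in each of 3 control (blue) and 3 transgenic (red) arrays, with each group's mean and SD in black at the right of its points and the same axis span in every panel. The groups of Dkk3 and Wif1 stand clearly apart, those of Sfrp4 and Sfrp5 are separated by a small gap in the other direction, and the other 5 overlap.

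Dkk3 had log2 values of 6.84, 6.83 and 7.07 in the control arrays and 8.29, 8.57 and 8.36 in the transgenic arrays. Every transgenic heart lay above every control heart, and the gap between the groups was wider than the range within either. The means were 6.91 ± 0.14 and 8.41 ± 0.14 (SD, n = 3 each), a log2 difference of 1.49 (SE 0.11, 95% interval 1.24 to 1.74, limma adjusted p = 0.0002198). Dkk3 is a secreted glycoprotein that is made in the adult heart as well as in other organs. Among the 9 inhibitors it was the only Dickkopf gene that was called.

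Dkk1 and Dkk2, the classical blockers of Lrp5 and Lrp6, did not follow. Dkk1 was at 5.25, 5.31 and 5.31 in control and 5.22, 5.32 and 5.34 in transgenic hearts. These ranges overlap, and the difference of 0.0040 had a 95% interval of -0.18 to 0.19 (limma adjusted p = 0.985). Dkk2 was at 5.18, 4.82 and 4.85 in control and 4.87, 4.91 and 4.63 in transgenic hearts. Control 1 was the highest of the 6, the groups overlapped, and the difference was -0.15 (95% interval -0.44 to 0.13, limma adjusted p = 0.5133).

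Wif1 had log2 values of 5.88, 5.76 and 6.26 in control and 7.03, 7.17 and 6.93 in transgenic hearts. Control 3 was the highest control, yet the lowest transgenic heart was above it. The means were 5.96 ± 0.26 and 7.04 ± 0.12 (SD, n = 3 each), a log2 difference of 1.08 (SE 0.14, 95% interval 0.77 to 1.39, limma adjusted p = 0.00203). In each group the array with the highest Dkk3 value was also the one with the highest Wif1 value, control 3 and transgenic 2.

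The secreted frizzled-related genes gave no call, with differences from -0.39 to 0.20 for the 5 genes. Sfrp5, which marks the inflow region of the embryonic mouse heart, was at 5.67, 5.41 and 5.32 in control and 4.93, 5.14 and 5.16 in transgenic hearts. The groups did not overlap and the transgenic hearts were the lower ones. The difference was -0.39 (SE 0.12, 95% interval -0.65 to -0.12), and its limma adjusted p of 0.06807 missed the threshold. It passed without control 3 (adjusted p = 0.0486), with array weights (0.0265) and when the dimmest 0.333 of genes by mean level were dropped (0.045).

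Sfrp4, a gene of connective tissue and bone, was at 4.25, 4.35 and 4.56 in control and 4.21, 4.18 and 4.10 in transgenic hearts. The ranges again did not overlap, but the gap between the groups was narrower than either group's own range, and the difference of -0.22 (95% interval -0.45 to 0.01) did not pass (limma adjusted p = 0.2173). The groups of 4 inhibitors thus did not overlap, 44.4% of the 9, beside 30.9% of all genes.

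Sfrp1, an inhibitor made by many mesenchymal cells, was at 7.68, 7.74 and 7.89 in control and 7.61, 7.74 and 7.87 in transgenic hearts. The groups covered nearly the same range, with a difference of -0.03 (95% interval -0.26 to 0.20, limma adjusted p = 0.8866). Sfrp2, which besides binding Wnts also acts on collagen processing, was at 6.80, 6.94 and 6.94 in control and 6.80, 6.97 and 6.81 in transgenic hearts, and the groups again overlapped. Its difference was -0.04 (95% interval -0.24 to 0.17, limma adjusted p = 0.8587). Sfrp2 was the only inhibitor with a second probe, which was dimmer, with values of 4.68 to 4.70 in control and 4.31 to 4.52 in transgenic hearts and a difference of -0.24 (adjusted p = 0.1443 when each probe was tested).

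Frzb, first found as a frizzled-related protein of cartilage, was at 6.07, 6.19 and 6.09 in control and 6.46, 6.39 and 6.11 in transgenic hearts. Transgenic 1 and transgenic 2 were above all controls, and transgenic 3 lay among them. The difference was 0.20 (95% interval -0.05 to 0.45, limma adjusted p = 0.3022).

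**Figure D2:**
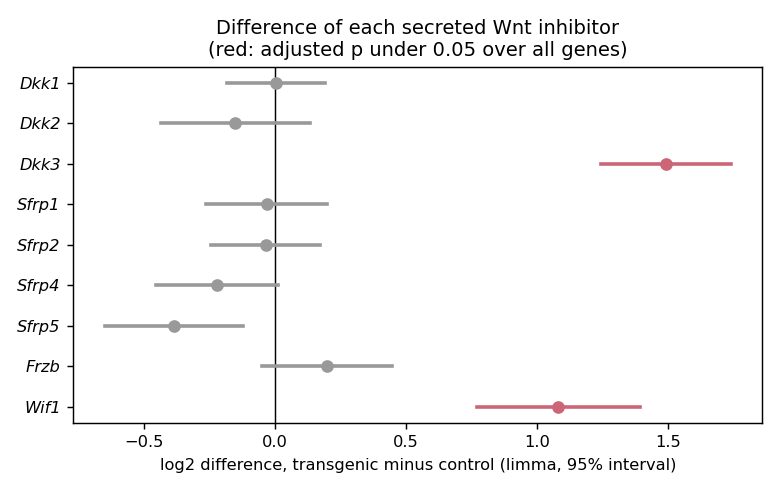
Log2 difference between transgenic and control hearts (x axis) of each inhibitor, as the limma estimate (point) with its 95% interval (line). The intervals of Dkk3 and Wif1, in red, start at 1.24 and 0.77, and all 7 others stay between -0.65 and 0.45.

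The intervals of the 7 genes that were not called lay between -0.65 and 0.45 on the log2 scale, so differences as large as that of Wif1 lay outside all of them. The mean levels of the 9 probes lay between percentiles 19.6 (Sfrp4) and 77.4 (Sfrp1) of all genes, and 4 of them (Dkk1, Dkk2, Sfrp4 and Sfrp5) were in the lower part of the scale, below the median gene, where array values tend to be compressed. No detection calls were used here. Within groups the inhibitors varied about as much as other genes, with a median SD of 0.137 in control and 0.128 in transgenic hearts, beside 0.129 and 0.105 over all genes.

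Promoter windows of 300 bases, from 250 before to 50 after the transcription start, were given by RefSeq (GRCm38.p6) for Dkk1, Dkk2, Sfrp2, Sfrp5, Frzb and Wif1. Those of Wif1, which rose, and Dkk1, which did not change detectably and is a textbook target of beta-catenin, are shown to set a called and an uncalled inhibitor side by side. Both strands were searched for the core of the TCF and LEF motif, spelled as CTTTG with A or T at both of the next bases, and matches are in capitals. The Dkk1 window lies on the - strand at chr19:30549447-30549746 and the Wif1 window on the + strand at chr10:121033754-121034053.
Dkk1: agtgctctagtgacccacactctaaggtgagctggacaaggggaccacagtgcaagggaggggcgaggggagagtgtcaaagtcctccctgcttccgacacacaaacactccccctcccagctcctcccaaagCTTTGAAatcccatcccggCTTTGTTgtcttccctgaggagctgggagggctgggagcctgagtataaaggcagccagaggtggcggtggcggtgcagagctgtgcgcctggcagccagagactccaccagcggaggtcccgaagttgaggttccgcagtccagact
Wif1: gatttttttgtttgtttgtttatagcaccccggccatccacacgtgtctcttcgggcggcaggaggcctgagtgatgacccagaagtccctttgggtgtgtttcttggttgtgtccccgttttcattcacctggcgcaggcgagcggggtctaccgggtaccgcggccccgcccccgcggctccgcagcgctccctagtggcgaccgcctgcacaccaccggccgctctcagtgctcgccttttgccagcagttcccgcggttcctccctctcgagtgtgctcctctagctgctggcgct
The Dkk1 window held 2 matches, which do not overlap. CTTTGAA begins 117 bases before the start. The other, CTTTGTT, begins 98 bases before it. The windows of Wif1 and the other 4 genes held 0. Of 27025 windows, 1 per gene, 16.9% held at least 1 match. Their median share of G and C was 52.7%, beside 57.7% to 66.0% for the windows of the inhibitors. The 2 sets were thus not matched for base composition. A match describes these letters only, and binding was not measured here.

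The genes whose profile over the 6 arrays was nearest to that of Dkk3, by the root mean square difference after each gene's own mean was taken off, were Cers6, a ceramide synthase (0.0876), Grap2, an adaptor of immune receptors (0.0907), and Ppp1r1a, an inhibitor of protein phosphatase 1 (0.13). Cers6 went from 7.71 ± 0.14 to 9.14 ± 0.089, and Grap2 from 5.10 ± 0.24 to 6.71 ± 0.14 (SD, n = 3 each). Nearest to Wif1 were Slc8a1, the cardiac sodium-calcium exchanger (0.0996), P4ha3, a collagen prolyl hydroxylase subunit, and Mical3, an actin-oxidising enzyme (both 0.132). Slc8a1 went from 9.88 ± 0.16 to 10.85 ± 0.089 (SD, n = 3 each). All of these measures are dominated by the step between the groups.

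The rest of the Wnt pathway was described with 6 lists of 96 measured genes. Of these, 9 rose and 2 fell, 11.5% of the 96 beside 11.1% of all genes, so the pathway as a whole was called at the background share. By direction, 9.38% were higher and 2.08% lower, beside 5.35% and 5.76% of all genes. After a second quantile normalization 8 were higher and 9 lower, so the balance of directions depended on the scaling. Among 10 other Wnt antagonists, 0 were called by limma and 2 had an unadjusted p under 0.05. At that limma cut there were 5633 of all 22180 genes, a background for the lists below as well. Dkkl1, the Dickkopf-like acrosomal protein, was at 5.10 to 5.34 in control and 4.81 to 4.98 in transgenic hearts, with a difference of -0.34 (adjusted p = 0.05816). It passed in 3 alternatives, with a second quantile normalization (0.031), centred arrays (0.0376) or array weights (0.039). Notum, an enzyme that removes the lipid of Wnt proteins, was at 5.70 to 5.99 and 5.48 to 5.60, with a difference of -0.31 (adjusted p = 0.08726), and passed after a second quantile normalization (0.0396). The differences of all 10 were below 0, with a median of -0.14. Over all genes 12567 of 22180 differences were below 0, with a median of -0.03.

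The Wnt ligands gave 0 calls of 19 by limma, with 2 at an unadjusted p under 0.05 and a median difference of -0.10. Wnt9a had a difference of -0.37 (adjusted p = 0.09354) and Wnt8b, a ligand of the brain, one of -0.21 (adjusted p = 0.1618). Of the 6 genes of Wnt secretion and R-spondins, ligands that raise Wnt signalling, 0 were called and 1 had an unadjusted p under 0.05. Rspo1 had a difference of -0.30 (adjusted p = 0.05295), which passed in 5 alternatives (0.027 to 0.0427), and Rspo2 one of -0.20 (adjusted p = 0.2048).

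Calls lay among the receptors, the transducers and the targets, at 26.1%, 13.6% and 12.5% of each list, beside 11.1% of all genes. The shares of transducers and targets were thus close to that of all genes. Of 23 receptors and coreceptors, 4 rose and 2 fell. Ror1, a receptor tyrosine kinase that binds Wnt5a, was at 8.24, 8.35 and 8.31 in control and 9.26, 9.17 and 9.20 in transgenic hearts, with no overlap and a log2 difference of 0.91 (limma adjusted p = 0.0004473). Ror2, its close relative, rose by 0.88 (adjusted p = 0.003833). Lgr6, a receptor for R-spondins, fell from 8.52 ± 0.11 to 7.83 ± 0.096 (SD, n = 3 each, limma adjusted p = 0.003289).

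Outside the naming rule, and chosen after their values were seen, the other called receptors were Fzd4, which fell by 0.59 (adjusted p = 0.006671), Fzd2, which rose by 0.42 (0.01709), and Ptk7, a coreceptor in planar cell polarity, which rose by 0.49 (0.03238). Fzd4 is a Frizzled known from endothelial cells. In the same hearts 4 of 10 endothelial markers fell, 40% beside 5.76% of all genes, and their part in the Fzd4 value was not tested. The coreceptors of the Dickkopf proteins, Lrp5 and Lrp6, had differences of -0.25 (adjusted p = 0.171) and 0.03 (adjusted p = 0.8651). The Dickkopf receptor Kremen1 had a value of -0.31 (adjusted p = 0.0605), and passed in 4 alternatives (0.019 to 0.0406).

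Of 22 measured signal transducers, 3 rose and 0 fell by limma, with 9 at an unadjusted p under 0.05, beside 5633 of all 22180 genes. Daam1, a formin that links Dishevelled to the cytoskeleton, rose by 0.52 (adjusted p = 0.008446), Btrc, a ubiquitin ligase subunit that marks beta-catenin for decay, by 0.46 (0.01071), and Bcl9, a cofactor of beta-catenin, by 0.41 (0.02026). Of 16 measured Wnt and beta-catenin targets, 2 rose and 0 fell by limma, with 3 at an unadjusted p under 0.05. Ccn4, a matricellular protein also called Wisp1, was at 5.90, 5.70 and 5.86 in control and 6.64, 6.81 and 6.94 in transgenic hearts, with no overlap and a difference of 0.97 (limma adjusted p = 0.001023). Nkd2, a Dishevelled-binding antagonist inside the cell, rose by 0.72 (adjusted p = 0.008787). Axin2 and Lef1, widely used readouts of beta-catenin activity named after their values were seen, had differences of 0.12 (adjusted p = 0.5158) and -0.11 (adjusted p = 0.5405).

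**Figure D3:**
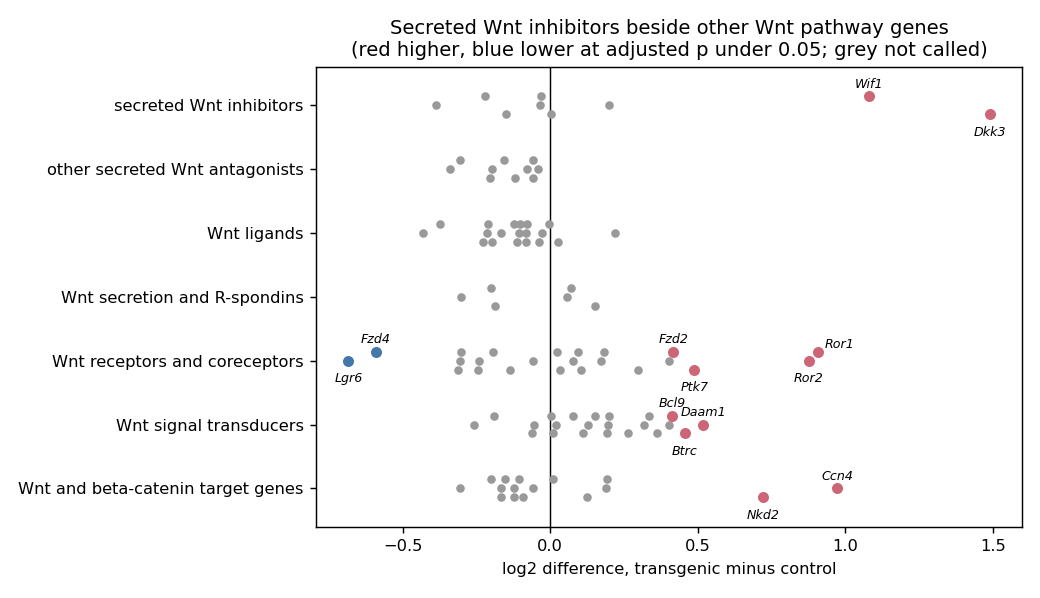
Log2 difference between transgenic and control hearts (x axis) of each inhibitor (top row) and of each measured gene of the 6 Wnt pathway lists, 1 point per gene, with called genes in red (higher) or blue (lower) and named. Dkk3 at 1.49 and Wif1 at 1.08 are the points farthest to the right, and the rows of other antagonists, ligands and R-spondins hold only grey points.

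Some of these calls were lost when any of several arrays was left out. Without transgenic 2, the count of pathway genes that rose was 5 in place of 9. Over all genes the count that rose in that fit was 569 in place of 1187. The calls lost in that fit were Fzd2 (adjusted p = 0.0614), Ptk7 (0.105), Bcl9 (0.0856) and Btrc (0.053). Fzd2 was also lost without control 1 (0.0649) or transgenic 3 (0.0647), Bcl9 without control 1 (0.0755) or transgenic 1 (0.0815), and Btrc without transgenic 1 (0.0502). Ptk7 was lost without control 1 (0.067), control 2 (0.068), control 3 (0.0731) or transgenic 1 (0.0954) and after a second quantile normalization (0.0507). Dkk3, Wif1, Ror1, Ror2, Lgr6, Fzd4, Daam1, Nkd2 and Ccn4 passed in all 15 alternatives.

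In heart RNA, fewer cells of a type and less RNA per cell cannot be told apart, so marker lists are given beside the inhibitors. Of 10 atrial markers, 4 rose and 1 fell, 40% and 10% beside 5.35% and 5.76% of all genes. Their mean log2 level ranged from 7.52 to 7.81 in control and from 7.86 to 8.12 in transgenic hearts, and their summed linear signal from 2665 to 3806 and from 5398 to 6957. Both cover markers that went both ways, with 6 differences above 0 and 4 below. Dkk3 is itself counted among the atrial genes of the mouse heart. Myl7, the atrial regulatory light chain, was at 9.70, 8.30 and 9.58 in control and 10.00, 10.99 and 11.08 in transgenic hearts, and Bmp10, a growth factor of the right atrium in the adult mouse, was at 4.41 to 5.02 and 4.69 to 4.74, among the dimmest 0.333 of genes. Both Myl7 and Dkk3 were lowest in control 2 among controls and in transgenic 1 among transgenic hearts, with Dkk3 at 6.83 and 8.29 there. Their highest values fell in different arrays, control 1 and transgenic 3 for Myl7 and control 3 and transgenic 2 for Dkk3. The atrial markers that rose were Nppa, Myl4, Sln and Myl7, and Kcna5 fell by 0.85 (limma adjusted p = 0.00197). Nr2f2, Kcnj3 and Bmp10 also lay below 0, at -0.31, -0.19 and -0.11, and were not called. Stard10 and Nr2f1 lay above it, at 0.24 and 0.03, also without a call. The part of atrial tissue in the Dkk3 and Wif1 values was not tested.

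Of 12 fibroblast markers, 1 rose and 1 fell, 8.33% each way beside 5.35% and 5.76% of all genes. The groups of 6 did not overlap, 3 higher and 3 lower. This share without overlap was 50%, beside 30.9% of all genes and 22.2% to 77.8% across the marker lists. The mean log2 level of fibroblast markers was 9.09 to 9.29 in control and 9.12 to 9.23 in transgenic hearts. It is a mean over markers that went both ways. Their summed linear signal was 11864 to 13025 and 11491 to 12339. Of 9 markers of valve and tendon-like tissue, 0 were higher and 1 lower (11.1%). They ranged from 5.61 to 5.75 and from 5.55 to 5.61, with a summed linear signal of 558 to 617 and 541 to 579. Tnmd, Cilp and Chad were among the dimmest 0.333 of genes. The 9 epicardial and mesothelial markers, with 1 higher and 1 lower (11.1% each), ranged from 6.80 to 6.91 and from 6.57 to 6.82. The summed linear signal of these was 1158 to 1289 and 1014 to 1191. In the fibroblast list Postn, a matrix protein, rose by 0.33 (limma adjusted p = 0.04495) and Mfap5 fell by 0.57 (0.008497). In the epicardial and mesothelial list Tbx18, a transcription factor, rose by 0.66 (limma adjusted p = 0.004809) and Msln fell by 0.58 (0.03643). The median difference of that list was -0.33, with 3 markers above 0 and 6 below. The part of these cells in the Dkk3 and Wif1 values was not tested.

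Endothelial markers (4 of 10 lower, 0 higher by limma) were at 9.01 to 9.11 in control and 8.67 to 8.84 in transgenic hearts, with a summed linear signal of 7054 to 7415 and 5382 to 5990. Myeloid markers (5 of 8 lower, 0 higher by limma) were at 7.09 to 7.24 and 6.42 to 6.68, with a sum of 1334 to 1505 and 834 to 1003. Smooth muscle and pericyte markers (1 higher and 4 lower of 9) were at 9.04 to 9.18 and 8.90 to 9.08, overlapping, while their sum of 14704 to 16126 and 10272 to 11529 did not overlap. Schwann cell markers (2 of 4 measured lower) were at 5.44 to 5.48 and 5.06 to 5.25, with a sum of 179 to 196 and 148 to 170 and S100b among the dimmest 0.333 of genes. Ventricular markers (2 higher and 2 lower of 7) were at 9.77 to 9.90 and 9.77 to 9.95, with a sum of 13513 to 14239 and 13931 to 14559. Of these, Hey2 and Irx4 rose by 1.77 and 0.73, and Kcnd2 and Kcnip2 fell by 1.65 and 0.95. General cardiomyocyte markers (0 of 10 called by limma, 2 at an unadjusted p under 0.05) were at 12.61 to 12.71 and 12.62 to 12.66, with a sum of 73113 to 75012 and 70408 to 72241, the latter lower without overlap. The shares called lower were 40% of endothelial, 62.5% of myeloid and 44.4% of smooth muscle and pericyte markers, beside 5.76% of all genes. Schwann cell markers had 50% lower and ventricular markers 28.6%. Higher calls were 11.1% of smooth muscle and pericyte and 28.6% of ventricular markers, beside 5.35% of all genes. The part of all these cells in the values of the inhibitors was not tested.

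**Figure D4:**
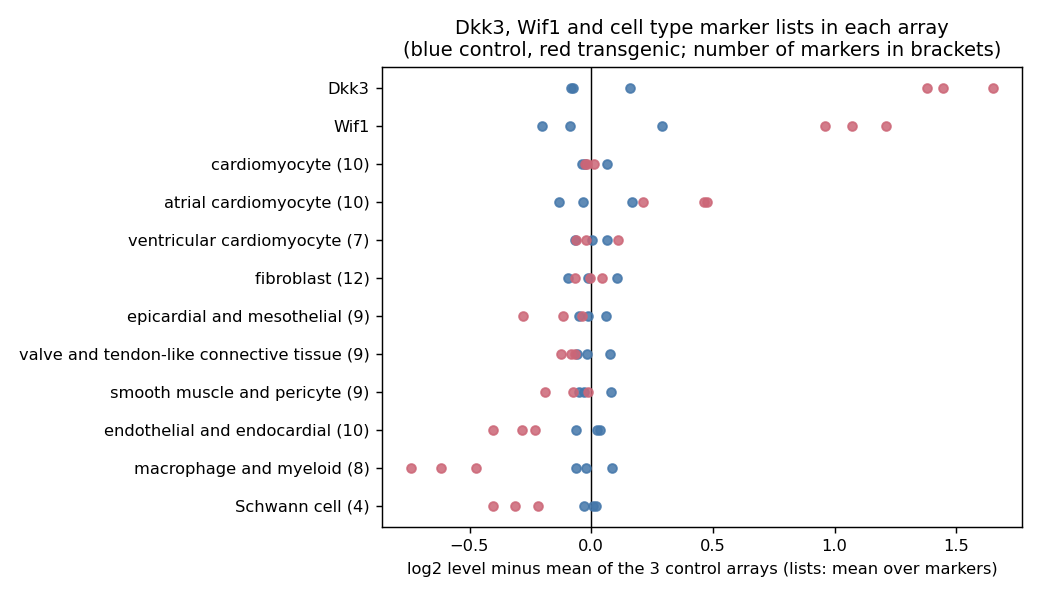
Log2 level of Dkk3, Wif1 and the mean of each cell type marker list in every array, as the difference from the mean of the 3 control arrays (x axis), with control arrays in blue and transgenic arrays in red. The atrial list is the only list whose transgenic arrays all lie above its control arrays, and the endothelial, myeloid and Schwann cell lists and, by a narrow margin, the valve and tendon-like list lie wholly below.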

How the data were processed

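Values for 41345 probes on 6 arrays were used as deposited. They are log2 expression values, and per the submitters' processing notes the authors used oligo, RMA and limma, without versions. How probes were summarised and filtered is not given in the sources used here. In the labels' protocols, cDNA from 100 ng of RNA was primed with poly(T), amplified and biotin-labelled.

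In the platform's annotation 23521 probes had 1 symbol, 1814 had several and 16010 had none. Only the first kind was named, and the probe with the highest mean was kept for each of 22180 genes, of which 21994 matched RefSeq (GRCm38.p6) by gene ID with 0 symbols differing. The test was lmFit and eBayes of limma 3.58.1 (R 4.3.3) without covariates, adjusted over all genes. Precision is limited by the number of arrays.

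The inhibitors and all lists were chosen with earlier results of these data known. All 9 inhibitors are named, up to 3 called genes of each pathway list by smallest p (2 where none was called), and the 3 nearest profiles of each called inhibitor, passing over symbols without a gene name such as Gm and digits or Rik endings. Of 100 pathway genes, 4 had no probe of their own. Alternatives changed the filter, probe rule, normalization, variance model, weights, sex term, replicate block and arrays used. The sex term was inferred from the Xist level of the same arrays and checked against genes of the Y chromosome. How the sexes fell across the groups is not given here.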

Additional observations from a re-analysis of the deposited data

How the results depend on the processing

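Dkk3 and Wif1 stayed higher and passed the threshold in all 15 alternatives, with log2 differences of 1.41 to 1.57 and 0.979 to 1.23. The count of inhibitors called lower was 0 and became 1, Sfrp5, with the dimmest genes (a share of 0.333) left out and with array weights, and was 0 to 1 when 1 array was left out. Dkk2 and Sfrp4 were not tested with the dimmest genes left out. Dkk1 changed sign after a second quantile normalization (-0.0197) and with arrays centred on their median (-0.0321), and ranged from -0.0193 to 0.0408 with 1 array left out. Sfrp1 changed sign with array weights (0.0134) and ranged from -0.0961 to 0.0341 with 1 array left out. Neither passed the test in any alternative, and the cause of these sign changes was not tested.

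The count of other pathway genes called lower was 2, and was 5 with the dimmest genes left out (where fewer genes were tested), 9 after a second quantile normalization, 4 with centred arrays, 4 with an intensity trend and robust variance and 6 with array weights. The count called higher was 9, and was 12, 8, 9, 11 and 11 in the same order, 10 with the replicate block, and 5 to 9 with 1 array left out. Whether the replicate numbers pair the samples is not known here. Deviations of same-numbered arrays correlated at 0.0163, -0.13 and 0.0138, and those of other pairs at -0.111 to 0.108. With so few arrays these values cannot show whether samples were paired. With the replicate number as a block, 2 inhibitors were called higher and 0 lower, and 1996 of all genes were called in place of 2465. That number was 1171 when transgenic 2 was left out, 1217 when transgenic 1 was, 1378 when control 1 was and 1553 when transgenic 3 was. Dim probes limit what could be seen of Sfrp4, Dkk2, Sfrp5 and Dkk1.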
